A study of Mus musculus with 4 samples.

Results

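The insulin-like growth factor (IGF) axis was examined in cultured mouse macrophages with and without deletion of G3bp1. Its 8 genes were taken by symbol: the ligand Igf1, the receptor Igf1r and the binding protein genes Igfbp2, Igfbp3, Igfbp4, Igfbp5, Igfbp6 and Igfbp7. All 8 were found, each as a single row, among the 34745 genes of the count table. The study asked which genes differ in primary macrophages once G3BP1, the scaffold protein of stress granules, is lost. RNA was sequenced in 4 libraries, 2 for each genotype. The group labelled WT is named as G3bp1f/f in the design text, meaning mice with loxP sites around G3bp1 and no recombinase. The group labelled G3bp1mac-/- carried the same floxed gene together with a Cre recombinase driven by the Lyz2 promoter, which is active across myeloid cells (monocytes, macrophages and granulocytes). These libraries are called KO here. The study derived the sequenced macrophages from bone marrow. The cells grew in DMEM with serum and antibiotics, no treatment is named for them, and their age, sex and strain are not given for these libraries.

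IGF1 is a secreted peptide that signals through IGF1R, a receptor tyrosine kinase whose adaptors activate the PI3K-AKT and MAPK pathways. Macrophages are a known source of IGF1 in tissues. The IGF binding proteins (IGFBPs) are secreted as well. Most of them hold IGFs in the extracellular space with high affinity, which limits access of the ligand to its receptor, and proteases release the ligand by cutting them. Fibroblasts, smooth muscle cells and endothelium are well-known producers of several IGFBPs.

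Library totals ran from 16724241 to 19747909 counts, and 12418 genes had enough counts to be tested. Levels are given as CPM, counts relative to the library total after TMM scaling for composition. A library in which a gene has 0 counts could still hold up to 0.152 to 0.179 CPM of it on unscaled totals, counting error only. The first principal component of the tested genes separated the libraries numbered 1 from those numbered 2 (57.4% of the variance), and the second separated WT from KO (34.3%). For G3bp1 the WT libraries held 1691 and 2875 counts and the KO libraries 1307 and 2296. Its mean level in KO was 65.6% of that in WT (log2 fold change -0.61, SE 0.40, adjusted p 0.904 by edgeR), and the genotypes overlapped. Leaving out single libraries moved that value between -1.02 (without KO replicate 2) and -0.19 (without WT replicate 2). Counts over the whole gene cannot show which exons were lost, so this gene did not check the KO label, and every direction given rests on the labels. All 10 macrophage markers were detected in every library, with sums between 21228 and 26566 CPM. Nothing in the labels says that libraries of a genotype came from separate animals, so p-values measure the spread between these libraries, which may be technical.

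The promoters of the 4 tested binding protein genes whose levels were higher in both KO libraries, and that of Igf1 for contrast, are shown because those 4 genes separate the genotypes while the ligand, the most abundant member, hardly does. Each run is the 250 bases before the RefSeq transcription start on GRCm38.p6, on the strand of the gene. They lie at chr11:7213924-7214173 (minus), chr11:99040994-99041243 (plus), chr15:102143936-102144185 (plus), chr5:77408046-77408295 (minus) and chr10:87860861-87861110 (plus). The Igf1 window lies inside the annotated gene, downstream of its annotated start. Capitals mark matches, on either strand, to the letters of a TATA element, written TATANA, a GC box, written GGGCGG, or a CCAAT box.

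Igfbp3: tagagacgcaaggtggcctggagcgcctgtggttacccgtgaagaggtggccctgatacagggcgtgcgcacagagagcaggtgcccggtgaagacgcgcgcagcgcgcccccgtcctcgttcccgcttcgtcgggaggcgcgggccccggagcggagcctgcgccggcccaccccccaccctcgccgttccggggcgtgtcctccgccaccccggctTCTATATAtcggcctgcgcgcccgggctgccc
Igfbp4: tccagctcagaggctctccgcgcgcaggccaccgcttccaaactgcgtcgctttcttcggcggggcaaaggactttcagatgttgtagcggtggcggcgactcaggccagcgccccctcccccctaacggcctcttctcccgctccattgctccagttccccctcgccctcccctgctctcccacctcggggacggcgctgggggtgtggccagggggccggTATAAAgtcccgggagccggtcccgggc
Igfbp6: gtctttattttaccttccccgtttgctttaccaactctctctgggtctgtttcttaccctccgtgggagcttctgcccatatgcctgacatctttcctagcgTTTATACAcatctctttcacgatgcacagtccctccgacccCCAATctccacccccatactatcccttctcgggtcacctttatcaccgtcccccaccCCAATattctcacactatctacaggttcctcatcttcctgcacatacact
Igfbp7: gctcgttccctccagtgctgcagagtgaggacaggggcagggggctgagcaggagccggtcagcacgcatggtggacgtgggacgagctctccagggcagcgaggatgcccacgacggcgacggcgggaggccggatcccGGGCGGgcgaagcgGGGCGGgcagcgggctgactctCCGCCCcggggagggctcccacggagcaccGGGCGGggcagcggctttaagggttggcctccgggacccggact
Igf1: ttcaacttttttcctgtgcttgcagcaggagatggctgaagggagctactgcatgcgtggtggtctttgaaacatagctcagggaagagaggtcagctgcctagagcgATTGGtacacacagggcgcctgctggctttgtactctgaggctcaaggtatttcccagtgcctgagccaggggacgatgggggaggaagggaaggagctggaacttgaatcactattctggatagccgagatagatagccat

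The TATA element letters were found at 32 and 30 bases before the start of Igfbp3 in overlapping matches, and at 28 bases before the start of Igfbp4. In Igfbp6 they lay farther away, at 148 and 146 bases, and the Igf1 and Igfbp7 windows held none. Igfbp7 had 4 matches to the GC box, while Igfbp6 had 2 matches to the CCAAT box and Igf1 had 1. Of 32851 promoter windows of this length, 22.6% held TATANA, 32.7% held GGGCGG and 33.8% held CCAAT. The G and C content was 73.2% for Igfbp3, 69.2% for Igfbp4 and 74.0% for Igfbp7, but 49.6% for Igfbp6 and 52.8% for Igf1, against a median of 52.4% over all windows. No single one of these motifs was present in all 4 binding protein windows.

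Positions are given on GRCm38. Igf1 (ENSMUSG00000020053) spans chr10:87858265-87937042 on the plus strand and has 8 annotated coding transcripts of 4 to 5 exons. An antisense gene, Igf1os, overlaps it by 5117 bases and had 0 to 3 counts per library. Igf1r (ENSMUSG00000005533) is the largest member and lies at chr7:67952859-68226780 in the count table, on the plus strand, with 21 exons. Igfbp2 (ENSMUSG00000039323, chr1:72824503-72852474, plus) and Igfbp5 (ENSMUSG00000026185, chr1:72857932-72874884, minus) are neighbours whose ends are 5457 bases apart. Igfbp3 (ENSMUSG00000020427) lies at chr11:7206086-7213923 on the minus strand, next to Igfbp1. Igfbp4 (ENSMUSG00000017493) is on the same chromosome, far from that pair, at chr11:99041244-99054392 on the plus strand. Igfbp6 (ENSMUSG00000023046) occupies chr15:102144362-102149511 on the plus strand and has 4 exons. Igfbp7 (ENSMUSG00000036256, chr5:77349240-77408041, minus) overlaps Polr2b on the opposite strand by 85 bases, and Polr2b had 886 to 1343 counts per library. Strand use in counting is not stated, so reads from that short stretch cannot be assigned to either gene.

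Levels between genes were compared in the deposited FPKM, which relate fragments to gene length as well as to the library total. Igf1 was the most abundant member, at 19.5 and 19.2 FPKM in WT and 23.9 and 25.0 FPKM in KO. Its mean of 21.9 FPKM ranked 1872nd among the 17991 genes with any count. Igfbp7 followed with 6.41 to 16.6 FPKM over the 4 libraries, a range that did not reach that of Igf1. Igfbp4 (1.32 to 6.15 FPKM) and Igfbp6 (1.22 to 4.09 FPKM) came next, and their ranges overlapped. Igfbp3 (0.0468 to 1.66 FPKM) and the receptor gene Igf1r (0.275 to 1.02 FPKM) overlapped as well, and the top of the Igfbp3 range reached that of Igfbp6. Igfbp2 (0 to 0.0666 FPKM) and Igfbp5 (0.00594 to 0.0306 FPKM) stood last, with at most 6 counts in any library. In every library the ligand transcript was thus far more abundant than that of its signalling receptor.

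The comparison of KO with WT asked whether these genes differ once G3bp1 is deleted. Transcripts of all 4 tested binding proteins had higher levels in both KO libraries, by an estimated 10.8-fold for Igfbp3, 3.06-fold for Igfbp4, 2.26-fold for Igfbp6 and 2.06-fold for Igfbp7. Igf1 itself was at 1.14 times its WT level, and the Igf1r levels of the genotypes overlapped. Summed stromal and fibroblast markers were 4.04 times as high in KO as in WT, and their part in these differences was not tested. A call needed an adjusted p below 0.05 together with a change beyond 1 on the log2 scale. In edgeR's quasi-likelihood test this was met by none of the 6 tested members and by no other gene (0 of 12418, or 0%), while 823 genes had an unadjusted p below 0.05, 576 of them higher and 247 lower in KO. Of the 6 tested members, 4 had such a p and were higher in KO (Igfbp3, Igfbp4, Igfbp6 and Igfbp7), where 4.64% of all tested genes did so. The KO libraries were both higher than either WT library for 5 of the 6, against 19.9% of all tested genes, and both lower for 0 of the 6, against 16.9%. The median log2 fold change was 1.11 over the 6 members and 0.041 over all tested genes. Igfbp3, at 10 and 3 counts in WT, had enough counts to be tested only through its KO libraries. Its part in these shares and in the median was thus partly set by the count threshold for testing. The DESeq2 Wald test called 181 genes (1.46%) and the edgeR exact test called 229 (1.84%), and both called Igfbp3 and Igfbp4 among the members. In such bulk samples, a change in the number of cells of a type and a change in RNA per cell cannot be told apart.

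**Figure D1:**
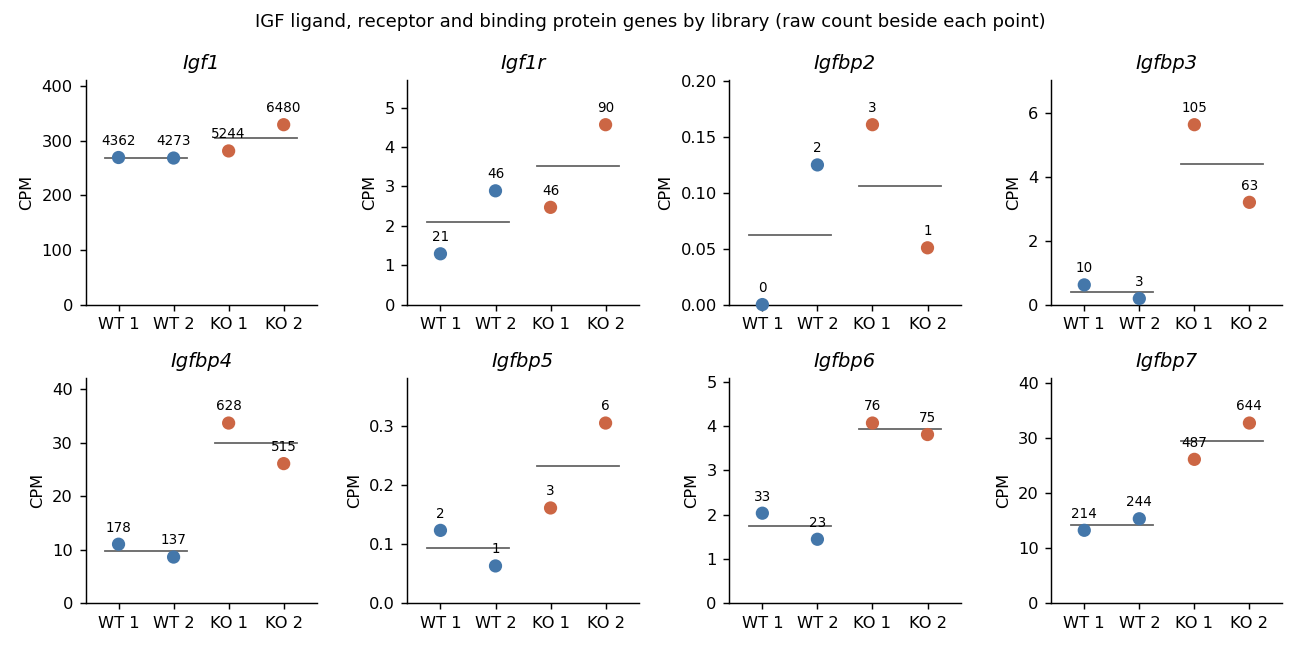
CPM of each of the 8 genes in the 4 libraries (WT in blue, KO in red, a line at the mean of each genotype, the raw count beside each point, axes from 0 and of different height). Igfbp3, Igfbp4, Igfbp6 and Igfbp7 lie clearly higher in both KO libraries, Igf1 differs little, Igf1r overlaps, and Igfbp2 and Igfbp5 rest on a handful of counts.

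Igf1, the ligand, was counted 4362 and 4273 times in the WT libraries, against 5244 and 6480 times in KO. Its mean was 268 ± 0.513 CPM for WT and 305 ± 33.8 CPM for KO (SD, n = 2 each). The KO libraries lay just above the WT libraries, the lower KO value being 1.05 times the higher WT value. This difference was small beside its error (log2 fold change 0.19, SE 0.23, 95% interval -0.40 to 0.77, adjusted p 0.964 by edgeR), and a correction for gene length turned it to -0.060. As a fold, the interval ran from 0.760 to 1.70.

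Igf1r, which encodes the signalling receptor, was counted only 21 and 46 times in WT against 46 and 90 times in KO. These were 1.29 and 2.89 CPM in WT and 2.47 and 4.57 CPM in KO, so the genotypes overlapped. Within each genotype the library numbered 2 lay well above the one numbered 1 (2.23 times in WT and 1.85 times in KO). The estimate was imprecise (log2 fold change 0.75, SE 0.55, 95% interval -0.64 to 2.15, adjusted p 0.928 by edgeR). It was 0.24 without KO replicate 2 and 1.41 without WT replicate 2, so single libraries set its size.

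Igfbp3 encodes the main IGF carrier of serum, which forms a complex with the acid-labile subunit there. Only 10 and 3 counts were found in the WT libraries, against 105 and 63 in the KO libraries. These correspond to 0.616 and 0.188 CPM in WT and 5.63 and 3.20 CPM in KO, and the lowest KO value was 5.19 times the highest WT value. The estimated difference was 10.8-fold (log2 fold change 3.43, SE 0.66, 95% interval 1.76 to 5.09), with an unadjusted p of 0.00298 and an adjusted p of 0.276 by edgeR. Its size ranked 37th of the 12418 genes. The WT counts are small, and the fold ran from 6.96 without WT replicate 2 to 22.8 without WT replicate 1. The DESeq2 Wald test gave an adjusted p of 0.00292 and the edgeR exact test one of 0.00102. The neighbouring Igfbp1 had 0 counts in all 4 libraries.

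Igfbp4 encodes a binding protein that mainly restrains IGF action and is cut by the protease PAPPA. Its counts were 178 and 137 for WT, against 628 and 515 for KO. This gave 9.78 ± 1.68 CPM for WT and 29.9 ± 5.32 CPM for KO (SD, n = 2 each). The genotypes were well apart, with the lower KO library at 2.38 times the higher WT library. KO exceeded WT 3.06-fold (log2 fold change 1.61, SE 0.27, 95% interval 0.93 to 2.29, adjusted p 0.250 by edgeR). The adjusted p was 0.00185 in the DESeq2 Wald test and 0.00471 in the edgeR exact test. Of the 6 tested members it had the smallest unadjusted p in the quasi-likelihood test (0.00159, 76th of all genes).

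Igfbp7 encodes a secreted protein of matrix and vessel walls that binds IGFs only weakly. WT libraries held 214 and 244 counts, and KO libraries 487 and 644. Levels were 13.2 and 15.3 CPM for WT and 26.1 and 32.7 CPM for KO, with the lower KO library 1.71 times the higher WT library. The fitted difference was 2.06-fold (log2 fold change 1.05, SE 0.24, 95% interval 0.43 to 1.66, adjusted p 0.342 by edgeR). Igfbp6, whose product prefers IGF2 to IGF1, was sparser, at 33 and 23 counts for WT against 76 and 75 for KO. Its mean was 1.74 ± 0.418 CPM for WT and 3.94 ± 0.189 CPM for KO (SD, n = 2 each). This was a 2.26-fold difference (log2 fold change 1.18, SE 0.36, 95% interval 0.26 to 2.10, adjusted p 0.544 by edgeR). In both genes the KO libraries lay above the WT libraries by more than the spread within a genotype. Neither was called by the DESeq2 Wald test or the edgeR exact test.

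Igfbp2 and Igfbp5 did not pass the filter and were not tested. Igfbp2 was seen 0 and 2 times in WT, and 3 times and 1 time in KO. Igfbp5, whose product binds matrix as well as IGFs, was seen 2 times and 1 time in WT, and 3 and 6 times in KO. Summed over the libraries of a genotype, the KO to WT ratio was 1.86 for Igfbp2 (exact 95% interval 0.267 to 20.6) and 2.79 for Igfbp5 (0.697 to 16), counting error only. The KO values of Igfbp5, at 0.161 and 0.305 CPM, were both above the WT values of 0.123 and 0.0627 CPM. A difference in either gene was not detectable at this depth.

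**Figure D2:**
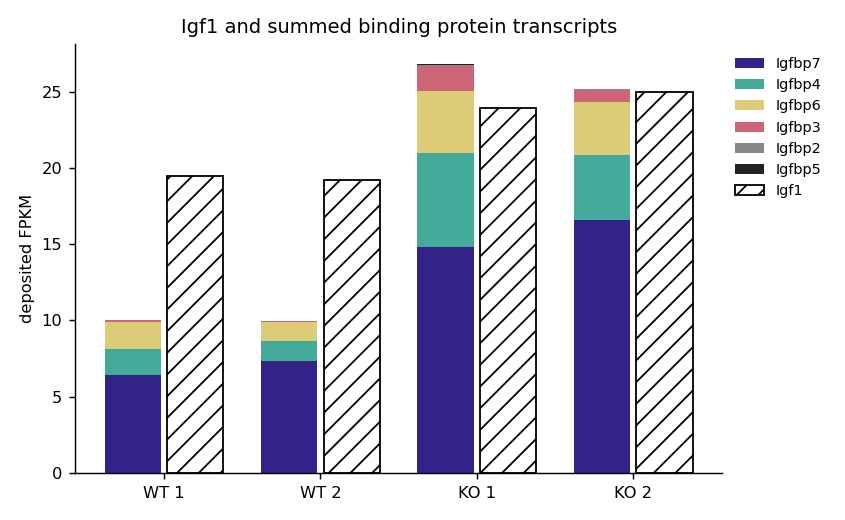
Deposited FPKM of Igf1 (hatched bars) and of the 6 binding protein genes (stacked bars) in each library. The stacked bars reach 10.0 and 9.99 FPKM in WT and 26.8 and 25.2 FPKM in KO, while Igf1 stays between 19.2 and 25.0 FPKM.

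Ligand and binding protein transcripts were also set side by side within each library. The summed FPKM of the 6 binding protein genes was 10.0 and 9.99 in WT and 26.8 and 25.2 in KO. Igf1 transcript per binding protein transcript, as a ratio of FPKM, was therefore 1.94 and 1.92 in WT and 0.889 and 0.991 in KO. The genotypes did not overlap in this ratio. It was not tested, since the genes entering it had been chosen with results known. Igfbp7, whose product binds IGFs only weakly, supplied 55.3% to 73.5% of the binding protein FPKM of a library. The ratio therefore does not set the ligand against strong binders alone. Igfbp4 with Igfbp7 together supplied 78.3% to 86.8%. Both shares overlapped between genotypes. The stromal and fibroblast marker sum, 4.04 times as high in KO, was higher in the same libraries as the binding protein sum, and its part was not tested. All of these values describe transcripts and not the secreted proteins.

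The rest of the pathway was described with a list of 68 genes, of which 51 were tested. Of these, 35 lay above 0, as did 6776 of all 12418 tested genes. The median log2 fold change of the list was 0.12, close to the 0.041 of all tested genes, and 0 genes were called in the quasi-likelihood test. An unadjusted p below 0.05 was reached by 2 of the 51, Grb10 and Stc2, both with higher levels in KO, and by 0 in the other direction. That is 3.92% of the list's tested genes with a higher level, against 4.64% of all tested genes. Stc2, at 9 and 7 counts in WT, had enough counts to be tested only through its KO libraries. Among the 51, the genotypes did not overlap for 9 with higher levels in KO (17.6%, against 19.9% of all tested genes) and for 3 with lower levels (5.88%, against 16.9%). Of the list genes that were not tested, Igf2, Irs1 and Pappa had higher values in both KO libraries, at 12 counts or fewer. The genotypes overlapped or were at 0 for the others, and Ins2, Insrr, Igf2bp1 and Igf2bp3 had lower means in KO. No share over all untested genes was taken beside this.

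Grb10 encodes an adaptor that binds the activated IGF1 and insulin receptors and damps their signal. The WT libraries held 50 and 67 counts, the KO libraries 407 and 331, or 3.64 ± 0.793 CPM against 19.3 ± 3.55 CPM (SD, n = 2 each). This was a 5.30-fold difference (log2 fold change 2.41, SE 0.32, 95% interval 1.60 to 3.21), with an adjusted p of 0.216 by edgeR. It was called by the DESeq2 Wald test (adjusted p 1.88e-06) and the edgeR exact test (adjusted p 6.18e-05). It had the largest value among the 33 tested adaptors and kinases, whose median log2 fold change was 0.17. Akt1 had the highest mean CPM of them, though not the highest FPKM. It was counted 4047 and 3821 times in WT against 5697 and 5644 times in KO (log2 fold change 0.28, SE 0.22, adjusted p 0.941 by edgeR).

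Stc2 encodes stanniocalcin-2, an inhibitor of the protease PAPPA. It was counted 9 and 7 times in WT against 25 times in each KO library (log2 fold change 1.38, SE 0.47, unadjusted p 0.0300, adjusted p 0.640 by edgeR). Pappa itself, counted 3 and 2 times in WT against 12 and 4 times in KO, was not tested. Over the 7 tested proteases and inhibitors of the group the median was 0.028. The most abundant was Ctsd, the lysosomal protease cathepsin D, at 29919 ± 2887 CPM for WT and 26445 ± 78.7 CPM for KO (SD, n = 2 each; log2 fold change -0.18, SE 0.15, adjusted p 0.941 by edgeR).

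**Figure D3:**
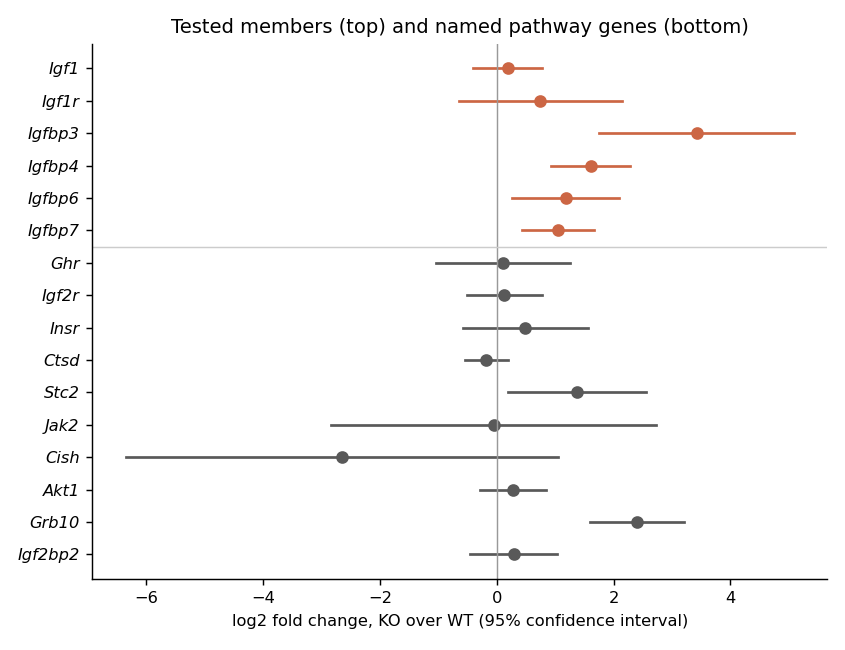
Log2 fold change of KO over WT with its 95% confidence interval (edgeR quasi-likelihood fit) for the 6 tested members (red) and the pathway genes named by rule (grey). Igfbp3 at 3.43 and Grb10 at 2.41 lie farthest to the right, and the intervals of Jak2 and Cish are the widest.

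Ligands other than Igf1 were scarce. Igf2, seen 0 times and 1 time in WT and 5 times in each KO library, was not tested, and Igfals, which encodes the acid-labile subunit, had 0 counts throughout. Ghr, the growth hormone receptor gene, had 13 to 21 counts per library (log2 fold change 0.11, SE 0.45, adjusted p 0.990 by edgeR). That estimate turned to -0.16 when WT replicate 2 was left out. The other receptors were Igf2r, which carries IGF2 to lysosomes, and Insr, the insulin receptor gene. Igf2r was far more abundant than Igf1r, at 23.5 to 35.2 FPKM. It differed little (log2 fold change 0.13, SE 0.25, adjusted p 0.975 by edgeR), with -0.057 when WT replicate 1 was left out. For Insr, 266 and 147 counts for WT stood against 427 and 257 for KO (log2 fold change 0.49, SE 0.42, adjusted p 0.949 by edgeR). That value was 0.027 without KO replicate 1 and 0.97 without WT replicate 1.

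Growth hormone signalling drives Igf1 in liver. Jak2, the kinase bound to the growth hormone receptor, had 525 and 876 counts in the libraries numbered 1 and 3942 and 4402 counts in those numbered 2. Between genotypes it gave a log2 fold change of -0.048 (SE 1.09, adjusted p 0.996 by edgeR), which ranged from -1.57 to 2.03 when KO replicate 2 or WT replicate 2 was left out. Cish, a feedback target of STAT5, was counted 3 and 81 times in WT against 3 and 13 times in KO (log2 fold change -2.65, SE 1.46, adjusted p 0.866 by edgeR). Leaving out WT replicate 2 turned this to 1.10. Of the 7 genes of this group, 6 lay below 0, as did 5642 of all 12418 tested genes. The genotypes overlapped for all 7, where 19.9% of all tested genes had higher and 16.9% lower values in both KO libraries. Igf2bp2, an RNA-binding protein gene named for its Igf2 mRNA target, ranged from 582 to 1191 counts (log2 fold change 0.29, SE 0.30, adjusted p 0.957 by edgeR).

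**Figure D4:**
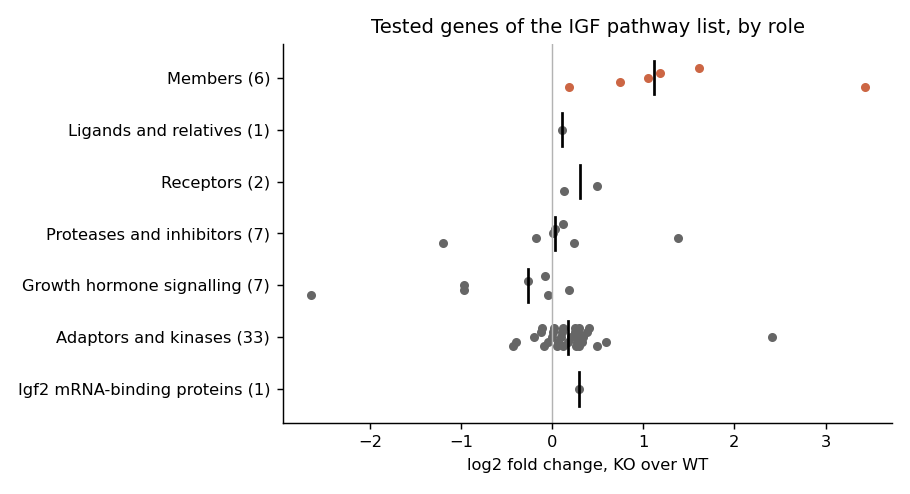
Log2 fold change of KO over WT for each tested gene of the pathway list, by role, with a vertical bar at the median of each role and the number of genes in brackets. The members at the top have a median of 1.11, while the 33 adaptors and kinases centre on 0.17 with Grb10 alone at 2.41.

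Markers of other cell types that could be present in a bone marrow culture were examined beside the binding proteins. All 13 tested markers of the stromal and fibroblast list, out of 14, had a log2 fold change above 0 with a median of 2.17, and 11 of them had higher values in both KO libraries (84.6%, against 19.9% of all tested genes). An unadjusted p below 0.05 with a higher level was reached by 10 (76.9%, against 4.64% of all tested genes). Lum, Postn, Thy1, Loxl1 and Pdgfrb had enough counts to be tested only with the help of their KO libraries. These shares were thus partly set by the count threshold for testing. The list sum was 109 and 125 CPM in WT and 496 and 450 CPM in KO. Dcn, its most abundant marker, which encodes the matrix proteoglycan decorin, was counted 658 and 666 times in WT against 2224 and 2504 times in KO. No marker of the list was at 0 in every library, and Lepr alone was at 0 in both KO libraries. The smooth muscle and pericyte list of 7 summed to 11.5 and 12.4 CPM in WT and 50.0 and 55.9 CPM in KO, led by Acta2. Its sum was carried by Acta2, Des and Tagln, while Cnn1, Cspg4 and the pericyte marker Rgs5 had at most 2 counts in any library. The endothelial list of 7 summed to 24.3 to 33.1 CPM in WT and 37.7 to 56.5 CPM in KO. The higher KO sum came from Vwf, at 26.7 and 19.6 CPM for WT and 49.3 and 34.9 CPM for KO. Without Vwf the list summed to 6.35 and 4.70 CPM for WT and 7.18 and 2.79 CPM for KO, which overlap. Pecam1, Cdh5 and Tie1 had lower and Kdr a slightly higher mean in KO, with genotypes that overlapped for all of these, and Tek and Emcn were at 0 in every library.

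No other list had a higher sum in both KO libraries. Macrophage markers, led by Lyz2, summed to 24515 and 26566 CPM in WT and 21228 and 24640 CPM in KO. Without Lyz2 they summed to 4710 and 5849 CPM for WT and 4374 and 5156 CPM for KO, which overlap. Itgam was higher in both KO libraries (10% of the list, against 19.9% of all tested genes). Cd68 and C1qa were lower in both (20%, against 16.9%). In the osteoblast lineage Sp7, Bglap and Ibsp were at 0 in every library and Spp1 led the sum. Without Spp1 this list summed to 2.22 and 1.88 CPM for WT and 5.36 and 2.18 CPM for KO, which overlap. Alpl, not tested, was counted 0 times and 1 time in WT against 13 and 4 times in KO, while Runx2 overlapped. Adipoq, Plin1, Cfd and Cidec of the adipocyte list were at 0 as well, and its sum was that of Fabp4. Sums were lower in KO for 4 lists: neutrophil (7.72 to 11.1 CPM against 20.6 to 22.1 CPM), B cell (10.8 to 11.6 against 21.6 to 22.5), mast cell and basophil (17.2 to 20.6 against 32.8 to 33.7) and megakaryocyte and platelet (80.7 to 115 against 149 to 225). By mean CPM their highest markers were S100a8, Cd79b, Cpa3 and Pf4. Without S100a8 the neutrophil list summed to 7.58 and 5.46 CPM for WT and 0.590 and 0.457 CPM for KO. Within it S100a9 was counted 91 and 82 times in WT against 2 times and 1 time in KO, while Ltf and Ly6g overlapped. Pf4 made up nearly the whole of the megakaryocyte and platelet sum. Without Pf4 that list summed to 0.246 and 0.188 CPM for WT and 0.483 and 0.254 CPM for KO. At 0 in every library were Elane and Mpo of the neutrophil list, Mcpt8 of the mast cell and basophil list and Gp9 of the megakaryocyte list, and none of the B cell list. The part of these cell types in the levels of Igfbp3, Igfbp4, Igfbp6, Igfbp7 and Grb10 was not tested.

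**Figure D5:**
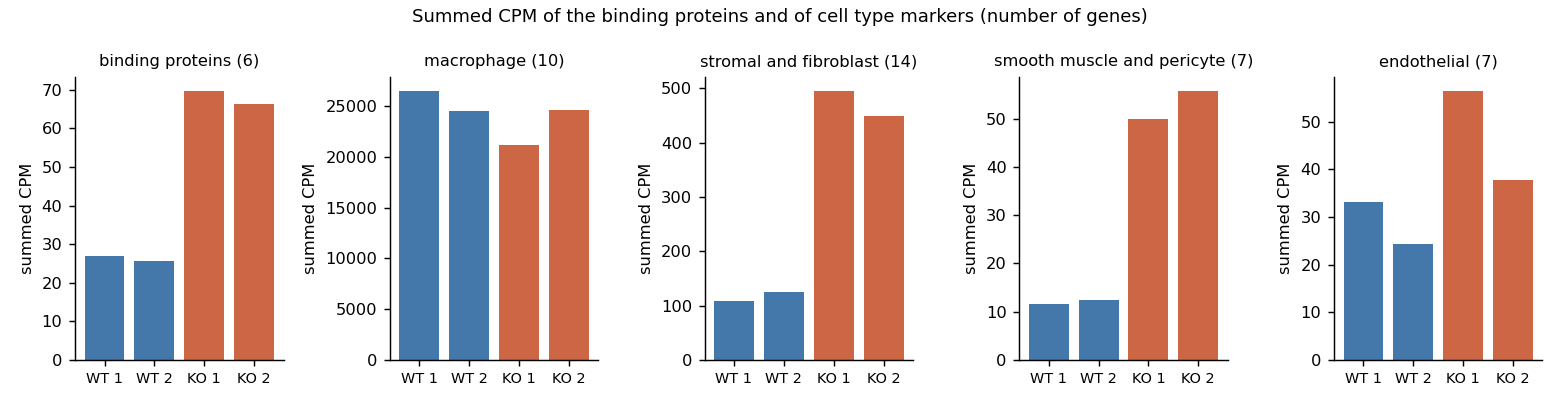
Summed CPM per library of the 6 binding protein genes and of 4 marker lists (number of genes in brackets, axes of different height starting at 0). The stromal and smooth muscle sums separate KO from WT as the binding protein sum does, at 25.7 to 26.9 CPM in WT and 66.2 to 69.8 CPM in KO, while the macrophage sum is of similar size in all 4 libraries.

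For each tested member the genes with the most similar profile were sought among 11493 tested genes, as the smallest Euclidean distance between centred log2 CPM over the 4 libraries. The genes nearest to Igfbp4 were Syt3 (distance 0.069), Trim2 (0.12) and Plscr2 (0.15). For Igfbp6 they were Dock9 (0.058), Tm4sf1 (0.067) and Ube2c (0.084), and for Igfbp7 they were Spats2 (0.12), Ctxn1 (0.13) and Sox9 (0.14). Igfbp3 had no close match, with Enpp3 (0.44), Slc36a2 (0.46) and Abat (0.53) as its nearest genes, each at 0 to 3 counts in WT. Edil3 (0.040), Sc5d (0.050) and Ilf2 (0.051) were nearest to Igf1, and Ppap2a (0.11), Enpp4 (0.12) and Pdgfb (0.16) to Igf1r. Among the members themselves, Igfbp4 and Igfbp6 were closest (0.50), followed by Igfbp6 and Igfbp7 (0.57), and all 3 lay farther from Igfbp3 (1.8 to 2.5). With 4 libraries, these names are a description.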

How the data were processed

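Total RNA of cultured macrophages was sequenced on an Illumina NovaSeq. The authors filtered reads with Seqtk, aligned them with HISAT2 2.0.4 and counted fragments per gene with StringTie 1.3.3b. They deposited raw counts, which were whole numbers, and FPKM beside each count. These FPKM are scaled by length and library total alone: over 10564 well-covered genes, the length they imply varied by no more than 0.0040% among the libraries. The submitters' processing notes name mm39, but GENCODE M21 (GRCm38) gave identical coordinates for 27699 of 34267 shared gene identifiers. Coordinates here are therefore GRCm38 ones.

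The edgeR 4.0.16 quasi-likelihood test (R 4.3.3, two-sided, TMM, filterByExpr with minimum count 10 and total 15) used genotype alone, and p-values were adjusted by Benjamini-Hochberg over 12418 genes. Its F statistic gave standard errors and intervals. Every pair of libraries differed beyond counting noise (chi-square over degrees of freedom 17.1 to 92.0). The code was tested on counts drawn with known changes before use. Alternatives were DESeq2 1.42.0 size factors and Wald test, the edgeR exact test, limma 3.58.1 on log2(FPKM + 1), other filters, a replicate block, a gene length correction (loess, span 0.5) and each library left out in turn.

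The members, lists and rules were chosen with earlier results of these data known. Pathway genes were named as the tested gene of each role with the highest mean CPM and the most changed one. Genes with an unadjusted p under 0.05 and separate genotypes were added. Markers were named if highest in their list by mean CPM or at 0 throughout. Named beyond this are Lepr, Lum, Postn, Thy1, Loxl1, Pdgfrb, Des, Tagln, Cnn1, Cspg4, Rgs5, Pecam1, Cdh5, Kdr and Tie1. So are Itgam, Cd68, C1qa, Runx2, Alpl and S100a9, and the sums without Vwf, Pf4, Lyz2, Spp1 and S100a8. Igf2, Igfals, Igfbp1, Irs1, Pappa, Ins2, Insrr, Igf2bp1 and Igf2bp3, which were not tested, are named beyond the rule for pathway genes, after their values were seen. Promoters came from RefSeq, where all 8 genes had a window. Motif searches covered also an E box and an AP-1 element, and the windows of Igf1r, Igfbp2 and Igfbp5, which are not shown.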

Additional observations from a re-analysis of the deposited data

How the results depend on the processing

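Igfbp3, Igfbp4, Igfbp6, Igfbp7 and Igf1r stayed above 0 in all 13 alternatives run for each. Without single libraries, log2 fold changes ran from 2.80 to 4.51 for Igfbp3, 1.42 to 1.80 for Igfbp4, 0.92 to 1.45 for Igfbp6 and 0.87 to 1.20 for Igfbp7. On the log2(FPKM + 1) scale of limma, where the added 1 shrinks low genes, Igfbp3 was at 1.01 and Igf1r at 0.33. For Igf1 the gene length correction gave -0.060, and -0.067 with the replicate block added. The same pair of fits gave -0.14 and -0.12 for Ghr and -0.060 and -0.054 for Igf2r. Without single libraries Ghr ran from -0.16 to 0.39, Igf2r from -0.057 to 0.33, Jak2 from -1.57 to 2.03 and Cish from -3.97 to 1.10. Jak2 was also above 0 in limma on log2(FPKM + 1) (0.31). The number of called genes, 0 in the quasi-likelihood test, was 181 in the DESeq2 Wald test and 229 in the edgeR exact test, and the cause was not tested. With CPM in place of FPKM, 4 of the 8 members kept their place in the order of levels: Igfbp3 changed places with Igf1r, and Igfbp2 with Igfbp5. With a count in any library as the only filter Igfbp2 and Igfbp5 were tested too, with no call.

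The libraries share only a number across genotypes, as no label says what it marks and 2 pairs are too few to tell. The correlation of deviations from the genotype mean was 0.710 between libraries of one number. With the replicate block 664 genes were called (5.35% of those tested), and 368 (2.96%) with the gene length correction added. Igfbp3, Igfbp4, Igfbp6 and Igfbp7 were called in both fits, with block values of 3.47, 1.61, 1.19 and 1.04 and edgeR adjusted p of 5.63e-12, 7.14e-09, 0.0147 and 0.000514. Grb10 (2.40) and Cish (-2.48) were called too. Jak2 turned to 0.19, and to 0.086 with the correction. Igf1 (0.18) and Igf1r (0.78) were not called. Depth limits Igfbp2, Igfbp5 and the WT side of Igfbp3, which rest on 10 counts or fewer in a library.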
